A study of Mus musculus with 2 samples.

Results

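The genes described here are 38 ligands and receptors of 3 guidance systems. These are the ephrins and Eph receptors, the Slits and Robos, and the netrins with the netrin-Gs, the Unc5 receptors, *Dcc* and *Neo1*. The 38 genes were listed by family name, by a rule that uses no measured value. Earlier results of these data were known when the families were chosen. *Epha10*, *Ntn3* and *Ntn5* bear these family names but were not in the list, and they stand among the related genes described last. All 38 were listed in both count tables among 31053 genes. Of these, 31 had 20 or more UMIs (unique molecular identifiers, each counted as 1 captured transcript) over both libraries and are compared below, as did 14729 of all genes. The 31 were 14 of 15 ligands and 17 of 23 receptors. Fibro/adipogenic progenitors (FAPs), the mesenchymal cells that lie between the fibers of skeletal muscle, were sorted from limb muscle of mice labelled C57BL/6 (C57BL/6J in the methods of the study) at 3 weeks of age as cells without lineage markers or Vcam1 and with Sca1. Each genotype gave 1 droplet scRNA-Seq library. The library labelled *Bap1* WT came from *Bap1* f/f mice, which carry floxed alleles and no Cre. The library labelled *Bap1* cKO in the sample title, and *Bap1* ΔMPC in the naming of the study, came from *Prx1-Cre*;*Bap1* f/f mice. Both groups therefore carry the floxed alleles, and they differ by *Prx1-Cre*, a transgene active in limb mesenchyme, so that cells of other origin in the limb keep *Bap1*. How many animals stood behind each library is not given in the sources used here.

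Sequencing gave 51015705 UMIs from 4103 cells for the library labelled WT (median per cell 12232) and 49540066 UMIs from 4378 cells for the library labelled ΔMPC (median per cell 11017.5). With 1 library per genotype there was no replicate and no test, and a difference between libraries may be one between animals, sorts or library preparations as much as between genotypes, which cannot be told apart. Levels are UMIs of a gene per 1000000 UMIs of the same cells (CPM). UMIs count 3′ ends, so a level is compared for 1 gene between groups of cells and not between genes. Intervals are exact 95% intervals for counting error only, since the spread between animals was not measured. *Bap1* itself had 17.6 CPM in the library labelled WT and 21.6 CPM in the library labelled ΔMPC, so the counts did not show the deletion. These 3′ counts do not show which exons a transcript held, so *Bap1* gives no check of the labels. Markers of FAPs (*Pdgfra*, *Ly6a*, *Cd34*, *Dcn*, *Lum*) were at 18190 and 16263 CPM in sum. Of 6 immune markers, which summed to 404 and 694 UMIs, 2 (*Ptprc* and *Cd3e*) were at 0 in both libraries, as were 3 (*Pax7*, *Myf5* and *Myod1*) of 5 muscle stem cell markers, which summed to 37.7 and 20.6 CPM. Mural markers (5 genes) were at 53.4 and 35.5 CPM, myofiber markers (4 genes) at 42.0 and 25.3 CPM and tendon markers (4 genes) at 67.9 and 88.9 CPM. The 4 adipocyte markers were at 0.157 and 5.85 CPM, with *Cidec* and *Lep* at 0 in the library labelled WT. The sum of 5 neuron markers, which bears on genes best known from neurons, was 6.35 and 8.66 CPM. The sum of 5 Schwann cell markers was 21.2 CPM in the library labelled WT and 67.3 CPM in the library labelled ΔMPC, where *Sox10*, their defining factor, was at 0. The part of any of these markers in the results below was not tested. *Xist*, which is made from an inactive X chromosome, was at 791 and 702 CPM. Of 4 Y-linked genes, *Ddx3y*, *Eif2s3y* and *Uty* were at 0 in both libraries and *Kdm5d* had 2 UMIs in the library labelled WT and 0 in the other. These values go against male donors, which the methods of the study name for its whole transcriptomic analysis, without saying whether that covers these libraries.

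Guidance proteins were named for steering growing axons. Ephrins are held at the cell surface and bind Eph receptor tyrosine kinases on a neighboring cell, with signals that can pass both ways, and most often end in repulsion. Slits are secreted proteins that bind Robo receptors and mainly repel, whereas netrins are laminin-related secreted proteins that attract through Dcc or its homolog neogenin (Neo1) and repel through Unc5 receptors. The same molecules are used outside the nervous system, in the sorting of cells at tissue borders, in vessels and in limb mesenchyme. In the limb they guide motor axons to their muscles, and FAPs share the muscle with those axons and their terminals.

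FAPs were divided by a score of 4 genes (*Pi16*, *Sema3c*, *Anxa3* and *Efemp1*) that mark the Dpp4+ subpopulation. Cells with 25 or more UMIs of these genes per 10000 are called Dpp4-type, and the rest are called other cells. There were 1050 Dpp4-type cells in the library labelled WT, or 25.6% (exact binomial interval 24.3% to 27.0%), and 1251 in the library labelled ΔMPC, or 28.6% (27.2% to 29.9%). Within 5 units of the threshold lay 210 and 337 cells. The median score was 59.7 in Dpp4-type and 4.07 in other cells of the library labelled WT, and 49.1 and 2.79 in the library labelled ΔMPC. The reverse held for a score of Cxcl14+ FAP markers (*Cxcl14*, *Smoc2*, *Hsd11b1*, *Col15a1*, *Crispld2*), with medians of 1.11 and 22.8 per 10000 in Dpp4-type and other cells of the library labelled WT and of 1.38 and 19.4 in the library labelled ΔMPC. Other cells were thus mainly high in Cxcl14+ markers but were not selected on them. Median depth was 13635 and 11661 UMIs in Dpp4-type cells and 11829 and 10733 UMIs in other cells, for the libraries labelled WT and ΔMPC.

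3 receptors had 100 or more UMIs and differed over 3-fold between the libraries over all cells: *Epha5*, which was higher in the library labelled ΔMPC, and *Epha4* and *Unc5b*, which were lower. Their promoters are shown because these genes carry the largest library differences among the well counted receptors. The sequences are the 250 bases before the RefSeq gene start in build GRCm38.p6 (mm10), written 5′ to 3′ on the strand of the gene, which is the minus strand for all 3. Each CG dinucleotide, the site of DNA methylation and the mark of CpG islands, is in capitals. CG reads the same on both strands, and its occurrences cannot overlap.
Epha5 (chr5:84417383-84417632): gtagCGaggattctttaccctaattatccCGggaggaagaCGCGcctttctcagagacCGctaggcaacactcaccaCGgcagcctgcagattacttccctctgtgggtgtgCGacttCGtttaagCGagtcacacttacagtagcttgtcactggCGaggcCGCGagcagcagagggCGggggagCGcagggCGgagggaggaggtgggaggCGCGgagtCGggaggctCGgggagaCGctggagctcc
Epha4 (chr1:77515089-77515338): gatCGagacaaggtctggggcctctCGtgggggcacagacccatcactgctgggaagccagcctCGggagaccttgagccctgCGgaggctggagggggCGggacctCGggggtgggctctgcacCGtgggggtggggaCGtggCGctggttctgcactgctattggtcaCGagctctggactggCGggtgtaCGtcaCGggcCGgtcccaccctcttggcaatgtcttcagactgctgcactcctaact
Unc5b (chr10:60831582-60831831): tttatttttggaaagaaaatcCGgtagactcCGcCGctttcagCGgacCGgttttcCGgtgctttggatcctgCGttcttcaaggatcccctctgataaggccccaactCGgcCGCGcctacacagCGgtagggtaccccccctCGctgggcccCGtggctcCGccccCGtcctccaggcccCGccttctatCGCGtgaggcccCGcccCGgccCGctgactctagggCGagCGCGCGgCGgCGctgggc
The *Epha5* window held 20 CGs, a number that 17.9% of the 32851 promoter windows of this length in the table reached. The *Epha4* window held 14 (reached by 29.4%), and the *Unc5b* window held 27 (reached by 8.56%). At least 1 CG was present in 92.1% of all windows. Over the 33 members with a promoter in the table, the number of CGs in the window with the most ranged from 2 to 46, with a median of 20. The same median over the 27025 genes of the table was 6. *Epha5*, which was higher, and *Unc5b*, which was lower, thus both had CG-rich windows by this count. The data hold no measure of methylation or binding at these sites, and the letters say nothing of either.

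By GENCODE M21 annotation of mm10, *Epha5* lies at chr5:84054761-84417382, *Epha4* at chr1:77367185-77515088 and *Unc5b* at chr10:60762593-60831581. *Efna1*, *Efna3* and *Efna4* are neighbors on chromosome 3 (chr3:89271733-89338028, all on the minus strand), 32.8 kb and 10.4 kb apart, and they are described side by side below. *Robo3* and *Robo4* lie 0.554 kb apart on chromosome 9, and both were at or near 0. *Unc5b* overlaps *Gm19972* on the same strand, *Epha4* holds *Mir6352*, and *Slit2* and *Slit3* hold *Mir218-1* and *Mir218-2* besides predicted genes. *Robo2* has 5 overlapping genes on its strand, among them *Mir691*. *Efnb2* and *Ephb1* have 3 each, and *Epha3*, *Ntn1*, *Ntng2* and *Unc5c* have 1 each. The reads of these members could in principle include those of the overlapping transcripts.

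Over all cells, 7 of 31 members differed more than 3-fold between the libraries, against 5.27% of all genes with the same minimum of UMIs. The 5 that were higher in the library labelled ΔMPC were *Efna3*, *Efnb3*, *Epha5*, *Ephb1* and *Unc5c* (background 3.15%), and the 2 that were lower were *Epha4* and *Unc5b* (2.12%). *Efna3*, *Ephb1* and *Unc5c* had 51, 28 and 90 UMIs over both libraries, and with a minimum of 100 UMIs the count was 4 of 26, against 3.11% of genes. More than 2-fold, the count was 14 of 31 over all cells (against 12.0% of genes), 13 of 26 in Dpp4-type cells (8.85%) and 16 of 31 in other cells (12.5%). The differences went both ways. The members' median log2 ratio (ΔMPC over WT) was 0.16, against 0.10 for all genes, with 16 above 0 and 15 below. The median size of the log2 ratio, without its sign, was 0.94 for the members and 0.26 for all genes. In sum, the ligands were at 326 CPM in the library labelled WT and 353 in the library labelled ΔMPC, a log2 ratio of 0.12 (0.09 to 0.15), which TMM scaling brought to 0.019. The receptors were at 272 and 216 CPM, a log2 ratio of −0.33 (−0.37 to −0.30). Neither shift was shared by both kinds of cell. The ligands were at 445 and 517 CPM in Dpp4-type cells (log2 ratio 0.22, 0.17 to 0.27). In other cells they were at 280 and 284 CPM (0.02, −0.02 to 0.06). The receptors were at 239 and 244 CPM in Dpp4-type cells (0.03, −0.04 to 0.10). In other cells they were at 285 and 204 CPM (−0.48, −0.53 to −0.44). These sums add different genes, and their families did not move together. Over all cells, the netrins (143 and 222 CPM) and netrin-Gs (3.39 and 9.55) were higher in the library labelled ΔMPC. The ephrins (102 and 79.6) and Slits (77.0 and 41.9) were lower. In Dpp4-type cells, *Robo1* was at 60.6 and 143 CPM and *Neo1* at 117 and 47.7 CPM.

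**Figure D1:**
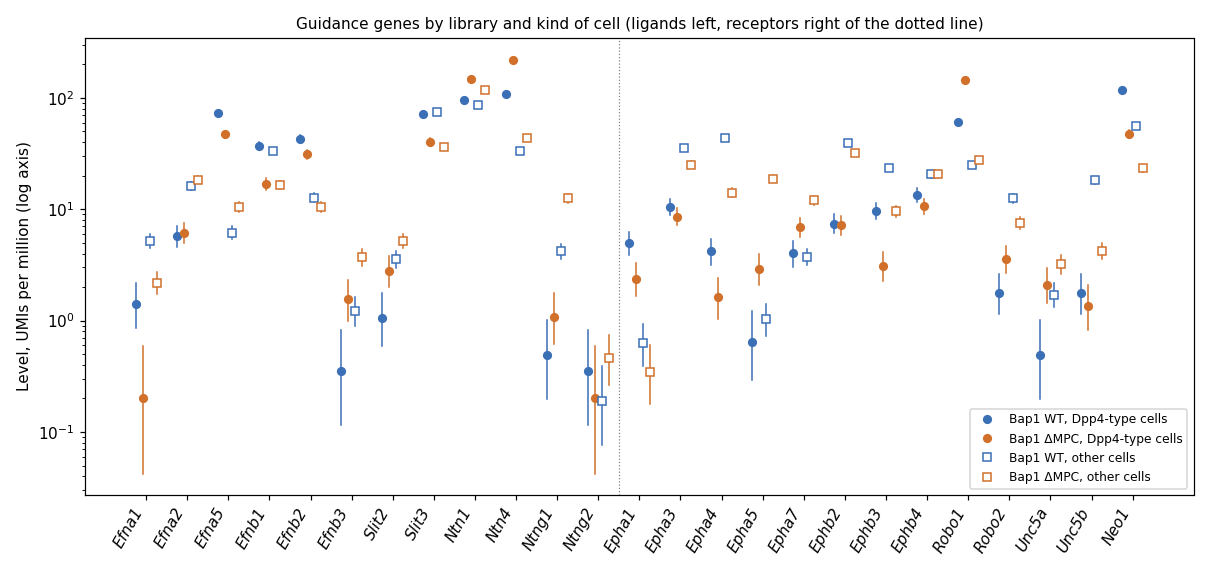
Level of 25 guidance genes in UMIs per 1000000 (log axis) in Dpp4-type cells (filled circles) and other cells (open squares) of the libraries labelled *Bap1* WT (blue) and *Bap1* ΔMPC (orange). Vertical lines are exact 95% Poisson intervals, which cover counting error only. *Ntn4* and *Robo1* stand highest in Dpp4-type cells of the library labelled ΔMPC, whereas *Epha4* and *Unc5b* stand highest in other cells of the library labelled WT.

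Among the ephrin-A ligands, which are anchored in the membrane by a lipid, *Efna5* was the best counted. It had 1268 UMIs in the library labelled WT and 1060 in the library labelled ΔMPC. In Dpp4-type cells its level was 73.7 CPM in the library labelled WT and 47.1 CPM in the library labelled ΔMPC, a log2 ratio of −0.65 (−0.79 to −0.51). In other cells it was 6.15 and 10.5 CPM, a log2 ratio of 0.77 (0.53 to 1.02). The kinds of cell therefore differed in direction, and the pooled value over all cells (24.9 and 21.4 CPM) hides this. The fold between Dpp4-type and other cells was 12.0 in the library labelled WT and 4.48 in the library labelled ΔMPC. *Efna5* binds most EphA receptors and is known for setting borders in retinal maps.

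*Efna1*, a ligand known from vessels, had 212 and 79 UMIs, or 4.16 and 1.59 CPM, and was lower in the library labelled ΔMPC, by a ratio of 0.384 (0.293 to 0.499). Most of its UMIs came from other cells, with 192 and 76 UMIs. Dpp4-type cells held 20 and 3 of its UMIs. The neighboring *Efna3* went the opposite way with few UMIs, 13 and 38 (log2 ratio 1.59, 0.65 to 2.62). *Efna4*, the last gene of that stretch, had 3.45 and 4.74 CPM (log2 ratio 0.46, 0.17 to 0.75). *Efna2* was nearly level, at 13.2 and 14.8 CPM, and was higher in other cells (16.1 and 18.4 CPM) than in Dpp4-type cells (5.74 and 6.16 CPM) of both libraries.

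The ephrin-B ligands span the membrane and can signal back into the cell that carries them. *Efnb1*, an X-linked gene whose loss disturbs skeletal patterning, had 1753 and 822 UMIs, or 34.4 and 16.6 CPM. Its log2 ratio was −1.05 (−1.17 to −0.93) over all cells, −1.14 in Dpp4-type and −1.02 in other cells. It was the most even of the ephrins between kinds of cell, with 37.1 and 33.3 CPM in Dpp4-type and other cells of the library labelled WT. *Xist* was at 791 and 702 CPM, as given above, and a link between its level and that of *Efnb1* was not tested.

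*Efnb2*, the ligand of arteries, was higher in Dpp4-type cells (42.6 and 31.3 CPM) than in other cells (12.7 and 10.4 CPM). Its library log2 ratio was −0.33 (−0.47 to −0.20) over all cells and negative in both kinds. *Efnb3*, a midline ligand of the spinal cord, had 50 and 152 UMIs (0.980 and 3.07 CPM) and a log2 ratio of 1.65 (1.18 to 2.14). In other cells it had 1.22 and 3.71 CPM. The 8 ephrins summed to 102 CPM in the library labelled WT and 79.6 in the library labelled ΔMPC, and in Dpp4-type cells to 166 and 108 CPM.

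EphA receptors mainly bind ephrin-A ligands, and *Epha5* had the largest ratio of the 31 members between the libraries. It had 47 UMIs in the library labelled WT, spread over 33 cells, and 699 in the library labelled ΔMPC, spread over 322 cells with at most 14 in 1 cell. Its level was 0.921 and 14.1 CPM, a 15.3-fold difference with a log2 ratio of 3.94 (3.51 to 4.40). In other cells it was 1.03 and 18.9 CPM, an 18.3-fold difference (13.2 to 26.1), and in Dpp4-type cells 0.638 and 2.91 CPM, a 4.57-fold difference (2.20 to 10.7). Of its UMIs in the library labelled ΔMPC, 6.15% lay in Dpp4-type cells, which held 29.8% of all UMIs.

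*Epha4*, a receptor that binds ephrins of both classes and guides motor axons in the limb, went the other way. It had 1664 and 514 UMIs, or 32.6 and 10.4 CPM, a log2 ratio of −1.65 (−1.80 to −1.51). It stood mainly in other cells, with 43.5 and 14.1 CPM there and 4.18 and 1.63 CPM in Dpp4-type cells. The library difference was of like size in both kinds of cell, with log2 ratios of −1.63 in other cells and −1.36 in Dpp4-type cells. *Epha3*, a receptor of limb and heart mesenchyme, was likewise higher in other cells (35.7 and 25.2 CPM) than in Dpp4-type cells (10.5 and 8.60 CPM). Over all cells its log2 ratio was −0.51 (−0.62 to −0.39).

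*Epha7* had 195 and 519 UMIs (3.82 and 10.5 CPM). Its ratio was 3.21 in other cells and 1.71 in Dpp4-type cells. It did not differ much between kinds of cell in the library labelled WT (4.04 CPM in Dpp4-type and 3.74 in other cells) and was higher in other cells in the library labelled ΔMPC (6.91 and 12.0 CPM). Among the EphA receptors with 20 UMIs, *Epha1* was the one higher in Dpp4-type cells of both libraries, at 4.96 and 2.37 CPM there against 0.623 and 0.345 CPM in other cells. *Epha2* had 68 UMIs in all (log2 ratio 0.92, 0.17 to 1.70). *Epha6* had no UMI, which is read as at most 3 UMIs per library, the floor used here for a count of 0, and *Epha8* had 3 UMIs.

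EphB receptors mainly bind ephrin-B ligands, and the well counted ones were higher in other cells. *Ephb3* had 1003 and 380 UMIs, or 19.7 and 7.67 CPM, with log2 ratios of −1.64 (−2.15 to −1.15) in Dpp4-type cells and −1.29 (−1.48 to −1.11) in other cells. *Ephb2* was at 39.5 and 31.9 CPM in other cells and 7.44 and 7.18 CPM in Dpp4-type cells. Its log2 ratio over all cells was −0.32 (−0.43 to −0.21). *Ephb4*, the receptor of veins and the partner of *Efnb2*, was at 18.6 and 17.6 CPM, a log2 ratio of −0.08 whose interval (−0.21 to 0.05) holds 0.

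*Ephb6*, which has no active kinase, had 125 and 91 UMIs (log2 ratio −0.42, −0.82 to −0.01). *Ephb1* had 2 and 26 UMIs, and the interval of its ratio runs from 3.35 to 116. The 13 Eph receptors summed to 140 CPM in the library labelled WT and 109 in the library labelled ΔMPC. In Dpp4-type cells the sum was 57.0 and 45.6 CPM and in other cells 171 and 136 CPM. In sum, the ephrins were thus higher in Dpp4-type cells and the Eph receptors in other cells, in both libraries. Such a sum adds the UMIs of different genes, and not every member followed it. *Efna5* made up 44.4% and 43.5% of the ephrin UMIs in Dpp4-type cells, and *Efnb2* came next. *Efna1*, *Efna2* and *Efnb3* were lower in Dpp4-type than in other cells of both libraries, and the receptor *Epha1* was higher.

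Of the Slits, *Slit3*, known from the diaphragm and from bone, had 3782 UMIs in the library labelled WT and 1854 in the library labelled ΔMPC. Its level was 74.1 and 37.4 CPM, a log2 ratio of −0.99 (−1.07 to −0.91). It was even between kinds of cell, with 72.3 and 74.8 CPM in Dpp4-type and other cells of the library labelled WT and 40.4 and 36.1 CPM in the library labelled ΔMPC. *Slit2*, the repellent of spinal midline and retinal axons, had fewer UMIs, 147 and 223, and was higher in the library labelled ΔMPC (2.88 and 4.50 CPM, log2 ratio 0.64, 0.34 to 0.95). *Slit1* had 1 UMI.

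Their receptor *Robo1* had 1773 and 3076 UMIs. In Dpp4-type cells it was at 60.6 CPM in the library labelled WT and 143 CPM in the library labelled ΔMPC, a log2 ratio of 1.24 (1.13 to 1.36). In other cells it was at 24.9 and 27.6 CPM (0.15, 0.02 to 0.28). This last value turned to −0.15 when other cells were limited to those with a score under 10 per 10000, and to 0.60 when Dpp4-type cells were taken as cells with a *Dpp4* UMI. Dpp4-type cells held 48.2% of its UMIs in the library labelled WT and 68.8% in the library labelled ΔMPC.

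*Robo2* had a different distribution. It had 488 and 317 UMIs and stood higher in other cells, at 12.5 and 7.59 CPM, than in Dpp4-type cells, at 1.77 and 3.59 CPM. Its log2 ratio was −0.72 (−0.95 to −0.50) in other cells and 1.02 (0.31 to 1.77) in Dpp4-type cells, the latter on 25 and 53 UMIs. *Robo3* had no UMI and *Robo4*, the Robo of endothelium, had 1, beside 14.3 and 12.3 CPM for the sum of 6 endothelial markers. In sum, the Slits were at 77.0 and 41.9 CPM and the Robos at 44.3 and 68.5 CPM. These sums were mostly *Slit3* (96.3% and 89.2%) and *Robo1* (78.4% and 90.7%), and over all cells *Slit2* and *Robo2* went the other way. The Robo sum was 62.3 and 147 CPM in Dpp4-type cells. In other cells it was 37.5 and 35.2 CPM (log2 ratio −0.09, −0.20 to 0.02).

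The secreted netrins were both higher in the library labelled ΔMPC. *Ntn1*, the classical attractant of commissural axons, had 4545 and 6293 UMIs, or 89.1 and 127 CPM, a log2 ratio of 0.51 (0.46 to 0.57). It was at 95.9 and 147 CPM in Dpp4-type cells and 86.5 and 119 CPM in other cells. *Ntn4*, a netrin of basement membranes that binds laminin, had 2762 and 4717 UMIs, or 54.1 and 95.2 CPM (0.81, 0.75 to 0.88). Its level was 109 and 218 CPM in Dpp4-type cells and 33.1 and 43.2 CPM in other cells.

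The netrin-Gs, which are lipid-anchored and act at synapses, were low. *Ntng1* had 161 and 454 UMIs (3.16 and 9.16 CPM, log2 ratio 1.54, 1.28 to 1.81), nearly all in other cells, where it had 4.17 and 12.6 CPM. *Ntng2* had 12 and 19 UMIs.

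Among the netrin receptors, *Unc5b*, a repulsive receptor known from vessels, had 698 UMIs in the library labelled WT and 168 in the library labelled ΔMPC, spread over 492 and 145 cells. Its level was 13.7 and 3.39 CPM, a log2 ratio of −2.01 (−2.26 to −1.77). In other cells it was 18.2 and 4.26 CPM (−2.10, −2.37 to −1.84). In Dpp4-type cells it had 25 and 20 UMIs, and the interval of the log2 ratio (−1.31 to 0.52) holds 0. *Unc5a* (70 and 142 UMIs, 2.09-fold, 1.56 to 2.82) and *Unc5c* (21 and 69 UMIs, log2 ratio 1.76, 1.04 to 2.54) went the other way, with few UMIs. *Unc5d* had 6 UMIs.

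*Dcc*, the main attractive netrin receptor of axons, had no UMI in either library. Its homolog *Neo1*, which also binds repulsive guidance molecules, had 3709 and 1513 UMIs, or 72.7 and 30.5 CPM. Its log2 ratio was −1.25 (−1.34 to −1.16) over all cells, −1.29 in Dpp4-type cells (117 and 47.7 CPM) and −1.27 in other cells (55.9 and 23.2 CPM). The log2 ratios of both kinds of cell differed by −0.02 (−0.19 to 0.15), an interval that holds 0. The netrins summed to 143 and 222 CPM over all cells, and the Unc5 receptors to 15.5 and 7.73 CPM. *Unc5b* made up 88.2% and 43.9% of the Unc5 UMIs. In Dpp4-type cells the Unc5 sum was 2.76 and 3.72 CPM (log2 ratio 0.43, −0.19 to 1.06), an interval that holds 0. In other cells it was 20.4 and 9.43 CPM.

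**Figure D2:**
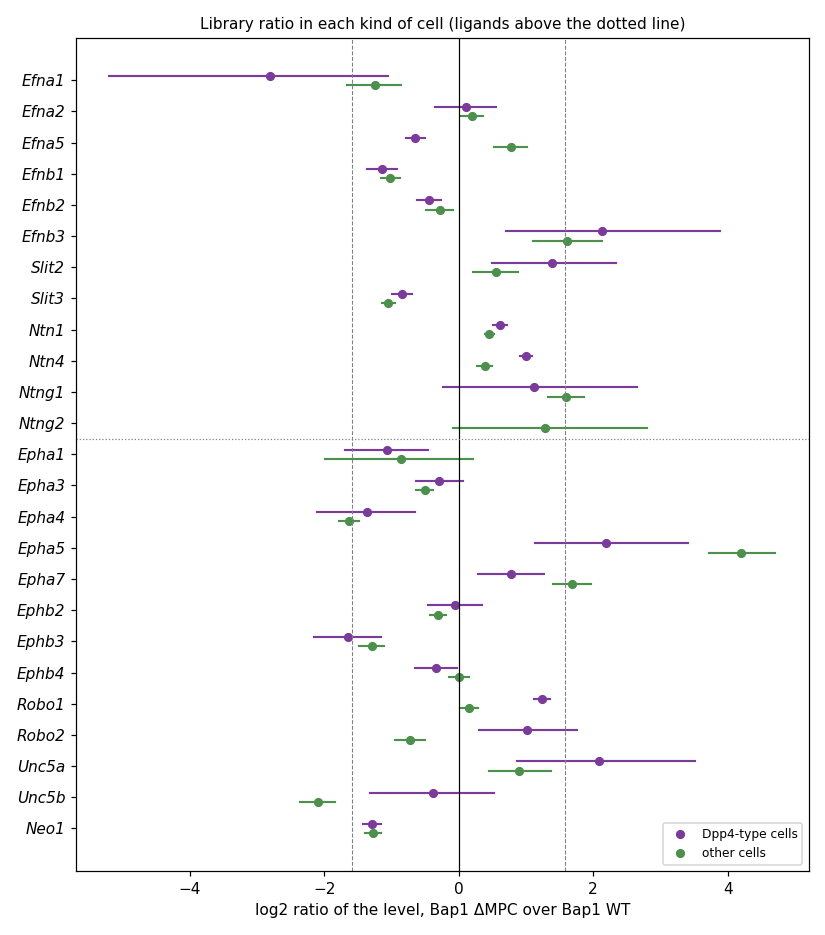
Log2 ratio of the level in the library labelled *Bap1* ΔMPC over that labelled *Bap1* WT, in Dpp4-type cells (purple) and other cells (green), with exact 95% intervals for counting error; dashed lines mark 3-fold. *Efna5* and *Robo2* have intervals on opposite sides of 0, and the *Neo1* points lie together at −1.29 and −1.27.

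In Dpp4-type cells, 26 members had 20 or more UMIs and 5 differed over 3-fold between the libraries, against 3.52% of genes. They were *Efnb3*, *Epha5* and *Unc5a*, higher in the library labelled ΔMPC (background 1.89%), and *Efna1* and *Ephb3*, lower (1.63%). Only *Ephb3* of these had 100 UMIs there, and with that minimum the count was 1 of 16, against 1.64% of genes. In other cells, 9 of 31 members differed over 3-fold, against 5.86% of genes. They were the 7 named for all cells, with *Epha7* and *Ntng1*, so that 7 were higher (background 3.68%) and 2 were lower (2.18%). The members' median log2 ratio was −0.06 in Dpp4-type cells and 0.20 in other cells, against 0.07 and 0.11 for all genes. With a minimum of 100 UMIs it was −0.27 over all cells, −0.31 in Dpp4-type cells and −0.0022 in other cells. The sign over all cells and in other cells thus rests on members with few UMIs, whereas in Dpp4-type cells it was negative either way.

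The difference between the library ratios was formed for the 26 members with enough UMIs in both kinds of cell. Its interval lay above 0 for 6 members, below 0 for 4 and held 0 for 16. The difference was not formed for all genes, so no background share stands beside these counts. *Robo1* (1.09, 0.92 to 1.26), *Ntn4* (0.61, 0.47 to 0.75), *Robo2* (1.74, 1.02 to 2.46) and *Unc5b* (1.71, 0.83 to 2.60) had the larger log2 ratio in Dpp4-type cells, as did *Slit3* and *Ntn1* by 0.21 and 0.16. *Epha5* (by a factor of 4.01), *Efna5* (−1.42, −1.70 to −1.14), *Epha7* (−0.91, −1.45 to −0.36) and *Efna4* (−0.74, −1.34 to −0.13) had the larger one in other cells. *Robo1* and *Ntn4* also stood higher in Dpp4-type cells of the library labelled WT.

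Within the library labelled WT, 14 of 28 members differed over 3-fold between Dpp4-type and other cells, against 10.0% of genes (the 4 genes of the score left out). The 4 higher in Dpp4-type cells were *Efna5*, *Efnb2*, *Epha1* and *Ntn4* (background 2.98%). The 10 lower were *Efna1*, *Efnb3*, *Epha3*, *Epha4*, *Ephb2*, *Slit2*, *Robo2*, *Ntng1*, *Unc5a* and *Unc5b* (7.06%). Within the library labelled ΔMPC, the count was 14 of 30, against 9.66%, of which *Efna5*, *Epha1*, *Robo1* and *Ntn4* were higher (background 2.16%) and the other 10 were lower (7.49%). These comparisons rest on cells chosen by 4 other genes, in the same libraries, and are descriptions. Over 2-fold, the counts were 18 of 28 and 20 of 30, against 17.0% of genes in both libraries. With cells divided by a *Dpp4* UMI instead, the counts were 7 of 28 (against 5.48%) and 9 of 30 (against 5.82%).

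**Figure D3:**
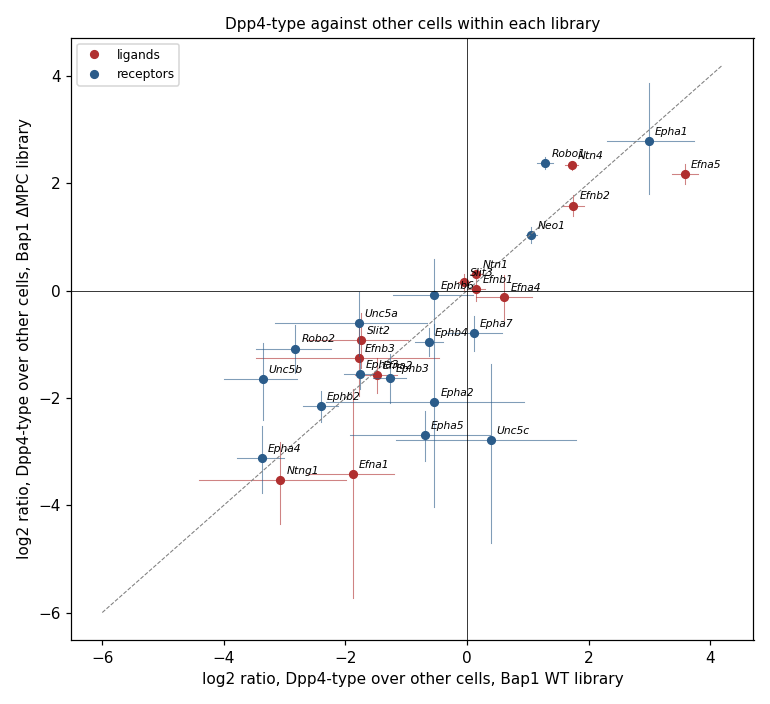
Log2 ratio of the level in Dpp4-type over other cells in the library labelled *Bap1* WT (x axis) and in that labelled *Bap1* ΔMPC (y axis), for ligands (red) and receptors (blue), with exact 95% intervals; the dashed line marks equal ratios. *Efna5* lies below the line (3.58 and 2.16), and *Robo1* (1.28 and 2.37) and *Robo2* (−2.82 and −1.08) lie above it.

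Levels were also followed over 4 steps of the score, under 5, 5 to under 25, 25 to under 60, and 60 or more UMIs per 10000. *Efna5* went from 4.24 to 8.67, 48.4 and 99.0 CPM in the library labelled WT and from 7.48 to 15.9, 43.2 and 55.2 CPM in the library labelled ΔMPC. The libraries thus crossed, with the library labelled ΔMPC higher at the 2 lower steps and lower at the top. *Robo1* went from 23.9 to 26.2, 47.7 and 73.4 CPM in the library labelled WT and from 20.9 to 39.7, 119 and 194 CPM in the library labelled ΔMPC. *Ntn4* went from 27.3 to 40.7, 86.0 and 132 CPM and from 28.4 to 69.8, 190 and 277 CPM. For both genes the libraries were close at the lowest step and apart at the highest.

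*Neo1* was also higher at higher scores, from 51.1 to 133 CPM in the library labelled WT and from 23.2 to 56.7 CPM in the library labelled ΔMPC, which was lower at all 4 steps. *Epha4* was lower at higher scores, from 52.5 to 31.6, 6.95 and 1.41 CPM and from 18.8 to 5.62, 2.10 and 0.632 CPM. The 4 steps held 1769, 1284, 530 and 520 cells of the library labelled WT and 2030, 1097, 843 and 408 cells of the library labelled ΔMPC.

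**Figure D4:**
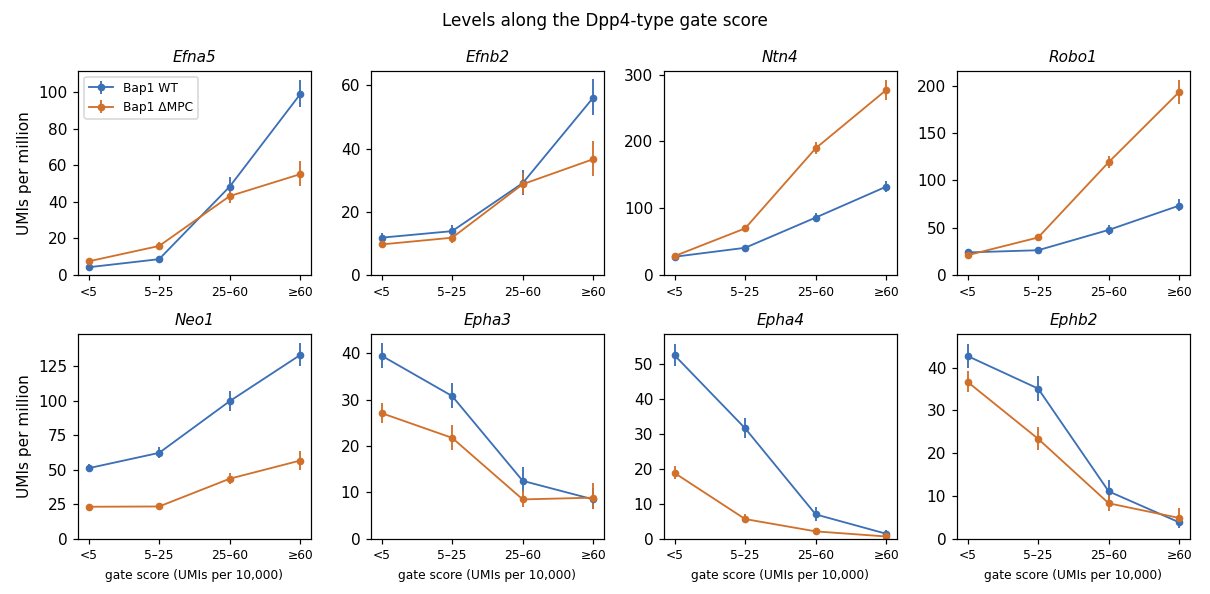
Level in UMIs per 1000000 of 8 guidance genes in 4 steps of the Dpp4-type score (x axis, UMIs per 10,000) in the libraries labelled *Bap1* WT (blue) and *Bap1* ΔMPC (orange), with exact 95% Poisson intervals. *Ntn4* reaches 277 in the top step of the library labelled ΔMPC and 132 in that labelled WT, and *Efna5* crosses between the libraries.

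To see where within the FAPs the members lay, cells were also cut at 5 UMIs per 10000 of 6 small sets of other genes, chosen after the data were seen. The sets are ranges of cells and not types, and since their genes may themselves differ between the libraries, the numbers of cells are given only as the base of the levels. *Epha5* was at 88.8 CPM (77.2 to 102) in the 199 cells of the library labelled ΔMPC cut by the tendon genes *Chad*, *Tnmd* and *Cilp2*, and at 10.4 CPM outside them. The 65 such cells of the library labelled WT had 10 UMIs of it, and the ratio between the libraries inside this range was 8.08. Outside, the library labelled WT had 0.738 CPM. This range held 29.9% of the *Epha5* UMIs of the library labelled ΔMPC. *Epha5* was also high, at 53.4 CPM, in 86 cells cut by *Hmcn1*, *Meox1* and *Etv4*. Outside all 6 ranges it was still at 0.592 and 10.1 CPM, a log2 ratio of 4.10 (3.51 to 4.75).

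*Robo2* and *Unc5b* were high in the *Hmcn1*, *Meox1* and *Etv4* range, which held 336 cells of the library labelled WT and 86 of that labelled ΔMPC. *Robo2* was there at 48.3 and 35.2 CPM, against 6.44 and 5.88 CPM outside. With these cells left out, its log2 ratio over all cells went from −0.58 to −0.13 (−0.37 to 0.11), an interval that holds 0. *Unc5b* was there at 42.8 and 7.96 CPM, and outside it kept a log2 ratio of −1.78 (−2.04 to −1.52).

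*Epha3* and *Slit3* were high in cells cut by *Fmo2*, *Angpt2* and *Stc1*, of which there were 278 and 36. *Epha3* was at 142 and 131 CPM inside and 21.5 and 19.3 CPM outside, and outside its log2 ratio was −0.15 instead of −0.51. *Slit3* was at 167 and 151 CPM inside and kept a log2 ratio of −0.90 outside. *Robo1* and *Ntn4* were at 239 and 326 CPM in 139 cells of the library labelled ΔMPC cut by *Krt7* and *Plet1*, most of them Dpp4-type (111). The library labelled WT had 4 such cells, and without this range the log2 ratios over all cells were 0.69 for each, against 0.84 and 0.81 with it. Leaving out instead the *Spon1*, *Cldn2*, *Hsd11b2* and *Angpt4* range, of 58 and 655 cells, raised them to 1.01 and 0.98. Without that range, *Ntng1* went from 1.54 to 1.23 and *Epha4* from −1.65 to −1.83.

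**Figure D5:**
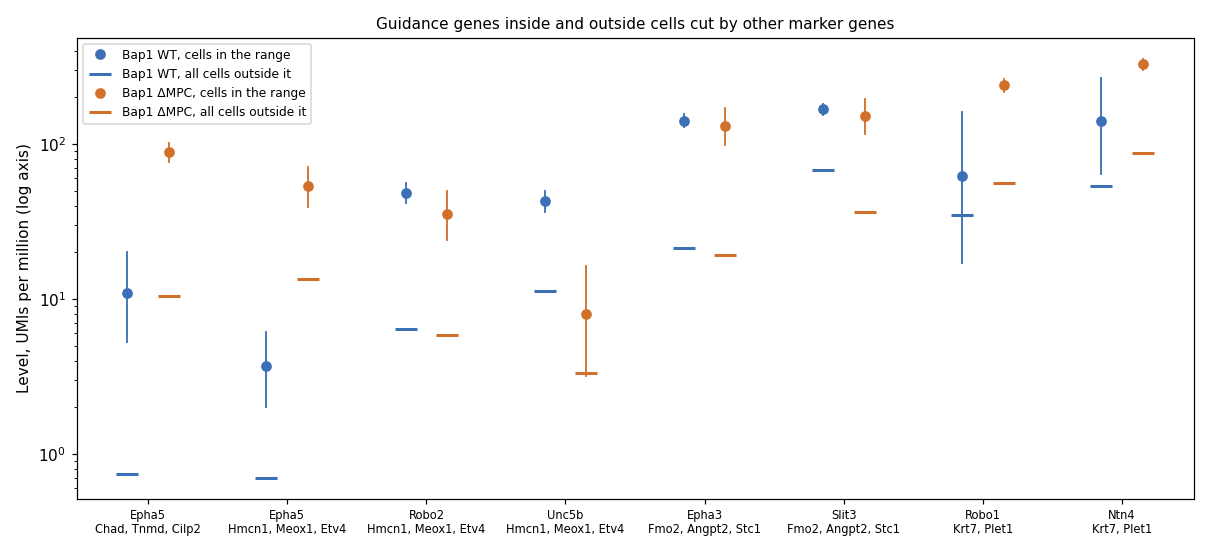
Level in UMIs per 1000000 (log axis) of members inside (circles, with exact 95% Poisson intervals) and outside (bars) cells cut by other marker genes, in the libraries labelled *Bap1* WT (blue) and *Bap1* ΔMPC (orange). *Epha3* and *Slit3* are at similar levels inside the *Fmo2*, *Angpt2*, *Stc1* range of both libraries (142 and 131, 167 and 151), whereas *Epha5* differs 8.08-fold inside the *Chad*, *Tnmd*, *Cilp2* range and lies apart outside it as well.

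Other genes of these pathways were taken from a list of 62, of which 61 were in the tables and 55 had 20 or more UMIs. Over all cells, 1 of 11 further ligands and coreceptors and 4 of 44 adapters and effectors differed over 3-fold between the libraries, beside the 5.27% of all genes. The ligand or coreceptor was *Dscam*, a netrin receptor with 10 and 47 UMIs (log2 ratio 2.28, 1.27 to 3.43). The adapters and effectors were *Chn2* (75 and 18 UMIs), *Grip2* (7 and 37 UMIs) and 2 with 100 or more UMIs, *Pak1*, a kinase downstream of Rac and Cdc42 (211 and 53 UMIs, log2 ratio −1.95, −2.41 to −1.51), and *Chn1*, a Rac-inactivating protein that acts downstream of Epha4 (176 and 50 UMIs, −1.77, −2.26 to −1.31). Both were lower in the library labelled ΔMPC, and a link to the level of *Epha4* was not tested. In Dpp4-type cells, 4 of 41 adapters and effectors passed 3-fold, against 3.52% of genes, of which *Pak1*, *Vav3* and *Chn2* were lower and *Ngef* was higher. *Ngef*, an exchange factor bound by EphA receptors, had 1.42 and 4.88 CPM there, on 20 and 72 UMIs, and *Vav3* had 4.75 and 1.56 CPM, on 67 and 23 UMIs. The adapters and effectors had a median log2 ratio of 0.13 and a median size of 0.30, near the 0.10 and 0.26 of all genes.

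5 partners that bind members outside the cell, *Rgma*, *Rgmb*, *Flrt2*, *Flrt3* and *Gpc1*, are named by their role and not by size, and each differed less than 2-fold over all cells. *Rgma*, a ligand of neogenin, was at 56.0 and 71.2 CPM, with a log2 ratio of 0.35 (0.27 to 0.42) over all cells, and at 30.1 and 60.2 CPM in Dpp4-type cells. *Rgmb* was at 84.5 and 72.8 CPM. *Flrt2* (79.2 and 57.7 CPM) and *Flrt3* (13.0 and 7.53 CPM), which bind Unc5 receptors, had log2 ratios of −0.46 and −0.79. *Gpc1*, a heparan sulfate proteoglycan that binds Slits, was at 6.00 and 11.3 CPM (0.91, 0.71 to 1.12).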

How the data were processed

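The authors deposited 1 table of raw UMI counts per gene and cell for each library, without normalization. By the methods and the submitters' processing notes, reads were aligned with Cell Ranger 3.1.0 to mm10, and cells were filtered for quality and doublets, and rid of cells high in markers of other muscle-resident cells, in Seurat 3.2.1. In the files every cell had 1501 to 4998 detected genes and under 5% mitochondrial UMIs, and no cell was left out. The libraries shared 5 cell barcodes.

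The UMIs of each gene were added up within a library and kind of cell and expressed per 1000000 of their total (CPM). Ratios are ΔMPC over WT on the log2 scale, with exact conditional binomial 95% intervals. A sum of 0 was set to 3 UMIs, and genes entered with 20 UMIs over the groups compared. A gene was called past 3-fold, the fold of the study, and past 2-fold as a second rule, with no test. Differences of ratios used the normal approximation to the counting error of the log2 ratios. Members, related genes and the score were chosen with earlier results of these data known. Values are given for members with 100 or more UMIs that differed over 2-fold in 1 of 5 comparisons, and for the 2 members of each family with the most UMIs; related genes are named with 100 UMIs and over 3-fold, or where they bind a member outside the cell. Members with fewer UMIs are named beyond that rule, to account for each of them.

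Alternatives changed the scaling (TMM factors, taken from edgeR 4.0.16 without its tests), minimum, depth, weighting of cells, fold, score threshold and cells kept. Those that leave out the cells of a marker range, and those of the difference of ratios, were added after the data were seen. Doublets were called with Scrublet in scanpy 1.11.5. Ratios and calls were run on simulated counts with planted changes. These held counting error only, as the intervals assume, so they say nothing of the spread between cells, animals or preparations. Promoters came from a RefSeq table (33 of 38 members matched), and positions from GENCODE M21. Scripts ran in Python 3.11.15 with scipy 1.17.1, and in R 4.3.3.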

Additional observations from a re-analysis of the deposited data

Results flagged for a closer look

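Of the 26 members with enough UMIs in both kinds of cell, 2 had library ratios whose intervals lay on opposite sides of 0. The same count over all genes was not made. For *Efna5*, the log2 ratio (ΔMPC over WT) in Dpp4-type cells minus that in other cells was −1.42, with the Dpp4-type ratio below 0 and the other-cell ratio above 0. For *Robo2*, it was 1.74, with the Dpp4-type ratio above 0 and the other-cell ratio below 0. With 1 library per genotype, neither difference was tested against replicates. For *Efna5*, the sign of both ratios was the same with thresholds of 15 and 40, with other cells under 10 per 10000, with TMM scaling and with a *Dpp4* UMI in place of the score, and the difference ranged from −1.53 to −1.29. For *Robo2*, the difference ranged from 1.15 to 1.96 over these, and with the *Dpp4* UMI the ratio in Dpp4-type cells was 0.15. The Dpp4-type level of *Robo2* rests on 25 and 53 UMIs. Outside all 6 marker ranges, the log2 ratio of *Robo2* over all cells was −0.10 (−0.36 to 0.16).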

How the results depend on the processing

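No paired analysis was possible because there was 1 library a genotype, and no result has a replicate check. Over all cells, the 25 members with full values kept the direction of their ratio in all 13 alternatives. With a *Dpp4* UMI in place of the score, *Ntng1* in Dpp4-type cells reversed from 1.13 to −0.41, the members with opposite directions went from 2 to 1 (*Efna5*), the median ratio was −0.21 in Dpp4-type and 0.37 in other cells, and the members over 3-fold between kinds of cell were 7 (WT) and 9 (ΔMPC). With a minimum of 100 UMIs, 4 members (all cells) and 1 (Dpp4-type) passed 3-fold between libraries and 9 between kinds of cell (ΔMPC), and the medians were −0.27, −0.31 and −0.0022 for all, Dpp4-type and other cells. Over 2-fold, the counts were 14, 13 and 16. With a threshold of 40, 1 member passed 3-fold in Dpp4-type cells, against 5 members at 25, where 3.52% of all genes passed. The share of all genes is not given here for this count or for the 9 between kinds of cell with 100 UMIs. Neither is therefore read as above the share over all genes. At 40, the medians were −0.16 (Dpp4-type) and 0.48 (other cells), and with 15 the Dpp4-type median was −0.25. TMM scaling shifted log2 ratios by −0.097 over all cells, and gave 0.084 for the other-cell median, 0.019 for the summed ligands and −0.43 for the summed receptors. The share of Dpp4-type cells was 32.7% (WT) and 36.8% (ΔMPC) at 15, 19.8% and 18.5% at 40, and 45.6% and 32.5% by a *Dpp4* UMI, so the order of the libraries depends on the threshold and is not read as a difference. *Robo1* in other cells was −0.03 at 15 and 0.51 at 40. For members with full values, 680 planned and 134 added alternative values lay inside the counting interval of the reported one and 33 and 16 lay outside. The cause was not tested. Members with under 20 UMIs over the groups compared have wide counting intervals, and no direction is read from them. Some directions given above rest on under 20 UMIs in 1 of the 2 groups.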
